A study of Mus musculus with 6 samples.

Results

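Transcript levels of 10 genes of the unfolded protein response (UPR) were examined in *Irf1-/-* hematopoietic stem cells (HSCs). The genes were taken by symbol from the deposited table of 26264 genes, and all 10 were found and passed the filter on low values. They comprised the 3 sensors of endoplasmic reticulum (ER) stress (*Ern1*, *Atf6*, and *Eif2ak3*), 3 transcription factors of the response (*Xbp1*, *Atf4*, and *Ddit3*), and 4 ER-resident targets (*Hspa5*, *Hsp90b1*, *Dnajb9*, and *Herpud1*). By textbook assignment, *Ern1*, *Xbp1*, and *Dnajb9* were placed in the IRE1 branch, *Atf6*, *Hspa5*, *Hsp90b1*, and *Herpud1* in the ATF6 branch, and *Eif2ak3*, *Atf4*, and *Ddit3* in the PERK branch.

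Bulk RNA sequencing had been performed on HSCs sorted from the bone marrow of untreated 8-week-old female mice, with 1 library per mouse and 3 mice of each genotype. The WT mice were C57Bl/6 and the *Irf1-/-* mice carried the whole-body knockout allele of the line B6.129S2-Irf1 tm1Mak/J. Nonhematopoietic cells around the HSCs therefore also lacked *Irf1*, and a difference that arose in the HSCs cannot be told apart from one imposed by their surroundings. Libraries are named by genotype and by the replicate numbers 1, 2, and 3 of the sample titles, and values are given in that order.

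Proteins that enter the ER are folded there by chaperones, and unfolded proteins that accumulate activate 3 membrane sensors. IRE1 (encoded by *Ern1*) splices the *Xbp1* messenger into a form that encodes an active transcription factor, ATF6 is cut in the Golgi apparatus to release a transcription factor, and PERK (encoded by *Eif2ak3*) phosphorylates eIF2α, which lowers translation in general and raises that of *Atf4*. In HSCs, which keep a low rate of protein synthesis, the response is known to bear on survival under stress. Splicing, cleavage, and phosphorylation act after or beside transcription, so gene-level read counts hold the amounts of these messengers and not the activity of the sensors, and spliced and unspliced *Xbp1* were counted together.

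Reads counted on genes were 43138521, 57281017, and 45129929 in *Irf1-/-* HSCs and 59658080, 45332573, and 43267486 in WT HSCs. At this depth each of the 10 genes had at least 744 reads in every library (the lowest was *Dnajb9*), and *Hspa5* had between 21103 and 44041. Values are normalized counts, that is, reads divided by the size factor of the library. Fold changes are *Irf1-/-* over WT on the scale log2(normalized count + 1). Calls required that limma over 17404 genes gave an adjusted *P* under 0.05 together with a log2 fold change beyond 0.58 in either direction.

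Reads of *Irf1* itself remained in the knockout, with normalized counts of 9267, 9524, and 9287 in *Irf1-/-* HSCs beside 10122, 11120, and 12057.5 in WT HSCs. Every knockout library was below every WT library. The mean was 84.3% of that in WT HSCs (log2 fold change −0.24, SE 0.088, adjusted *P* = 0.170 by limma), and the exact two-sided permutation *P* was 0.1, the smallest that 3 mice against 3 allow. The count covers the whole gene and does not separate the deleted from the remaining exons, so it does not by itself check the genotype labels. The authors report less MHC class II on the surface of the knockout cells. In these libraries *H2-Aa*, an MHC class II gene chosen after its values were seen, had normalized counts of 99.1, 47.5, and 92.4 in *Irf1-/-* HSCs and of 2531, 3636, and 2710 in WT HSCs. This separation runs the way the labels say. The authors already name *H2-Aa* among the genes reduced in this RNA sequencing, so it is no independent check of the labels.

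HSC markers were present in all libraries. *Kit*, the most abundant of 11 listed HSC markers, had normalized counts between 77902 and 88715, and none of the 11 was at 0 in any library. Their sums were 232019, 260037, and 238790.0 in *Irf1-/-* HSCs and 236850.0, 241025, and 219613 in WT HSCs. Of the 11, 1 was called higher and 0 lower, 5 were higher and 1 lower at an unadjusted *P* under 0.05, 3 were below 0, and the median was 0.24. Over all tested genes, 0.96% were called higher and 0.954% lower by limma. At an unadjusted *P* under 0.05, 8.38% of them were higher and 8.07% lower. Fold changes were below 0 for 50.4% of all tested genes, with a median of −0.0028. The genes named next were chosen after their values were seen. *Fgd5* was the gene called, at 0.83 (SE 0.087, adjusted *P* = 9.1e-05, limma). *Procr* was at 0.52 (SE 0.099, adjusted *P* = 0.0112, limma) and *Ly6a*, which encodes the sort marker Sca-1, at −0.43 (SE 0.094, adjusted *P* = 0.0245, limma), both short of the fold threshold.

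None of the 10 UPR genes was called between genotypes in limma, where 1.91% of all tested genes were called. edgeR and DESeq2 on the recovered reads also called 0 of them. At an unadjusted *P* under 0.05, *Xbp1* was higher (background 8.38% of tested genes) and *Hsp90b1* lower (background 8.07%) in *Irf1-/-* HSCs by limma. The same 2 genes passed in edgeR and in DESeq2. In limma this count of 2 became 0 without *Irf1-/-* replicate 1, WT replicate 1, or the variance trend. It was 4 with a block for replicate number and 4 with median centring, where *Xbp1* did not pass. Which genes passed also changed, to *Xbp1* and *Atf4* without WT replicate 2. The libraries of the genotypes did not overlap for 2 genes, *Dnajb9* and *Atf4*, both lower in *Irf1-/-* HSCs (background 9.27%). The fold changes of 5 of the 10 genes were below 0, and their median was −0.019 beside −0.0028 over all tested genes.

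Compared per kilobase of exon in WT HSCs, the ER chaperone genes were the most abundant and the sensors the least. *Hspa5* had 10279 normalized counts per kb, followed by *Hsp90b1* with 5686 and *Herpud1* with 3707, without overlap among the WT libraries. The transcription factors *Xbp1* (2848 per kb) and *Atf4* (2633 per kb) lay next, and the range of *Xbp1* overlapped with those of *Herpud1* and *Atf4*. *Dnajb9* (587 per kb) and *Ddit3* (560 per kb) also had overlapping ranges. The sensors *Eif2ak3* (397 per kb), *Atf6* (292 per kb), and *Ern1* (291 per kb) stood at the bottom, and the wide range of *Ern1* included that of *Atf6* but did not reach *Eif2ak3*.

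Among the sensors, *Ern1*, the kinase and endoribonuclease of the most conserved branch, had normalized counts of 2241, 2108, and 3589 in *Irf1-/-* HSCs and of 1614, 2530, and 2991 in WT HSCs. *Irf1-/-* replicate 3 was the highest of all 6 libraries and WT replicate 1 the lowest, and the genotypes overlapped. The coefficient of variation was 29.5% in WT and 31.0% in *Irf1-/-* HSCs, and 0.799% of the 8388 tested genes with a mean of at least 1000 normalized counts varied more among WT mice. The log2 fold change of 0.16 (SE 0.21, 95% confidence interval −0.30 to 0.62, adjusted *P* = 0.802, limma) therefore bounds little. It turned to −0.083 without *Irf1-/-* replicate 3 and to −0.099 without WT replicate 1.

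*Atf6*, the sensor that is itself the precursor of a transcription factor, was even among WT mice. Its normalized counts were 2130, 2408, and 2077 in *Irf1-/-* HSCs and 2158.5, 2183, and 2188 in WT HSCs. The 3 WT libraries lay inside the *Irf1-/-* range, with a coefficient of variation of 0.727% in WT and 8.07% in *Irf1-/-* HSCs. The log2 fold change was 0.016 (SE 0.10, 95% confidence interval −0.20 to 0.23, adjusted *P* = 0.967, limma), and its sign turned with median centring (−0.015) and without *Irf1-/-* replicate 2 (−0.049).

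*Eif2ak3*, which encodes the eIF2α kinase PERK, had normalized counts of 2206, 2541, and 2289 in *Irf1-/-* HSCs and of 2096, 2261, and 2107 in WT HSCs. *Irf1-/-* replicate 2 stood highest, and *Irf1-/-* replicate 1 lay below WT replicate 2, so the genotypes overlapped. Its log2 fold change was 0.12 (SE 0.10, 95% confidence interval −0.094 to 0.34, adjusted *P* = 0.635, limma), and it was 0.061 without *Irf1-/-* replicate 2. For each of *Atf6* and *Eif2ak3* the interval excluded a change as large as the calling threshold in either direction, which for *Ern1* was so on the lower side.

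Of the transcription factors, *Xbp1*, which drives genes of ER translocation, folding, and secretion once spliced, had normalized counts of 10753, 11875, and 10463 in *Irf1-/-* HSCs and of 8171, 11069, and 8511 in WT HSCs. WT replicates 1 and 3 were below every *Irf1-/-* library, whereas WT replicate 2 lay within the *Irf1-/-* range. The log2 fold change was 0.27 (SE 0.11, 95% confidence interval 0.026 to 0.50, unadjusted *P* = 0.0324, adjusted *P* = 0.247, limma), which did not pass the correction. Without WT replicate 2 it was 0.40 (adjusted *P* = 0.0544, limma, the lowest of 16 alternatives, which reached up to 0.654).

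*Atf4*, the factor whose translation rises when eIF2α is phosphorylated, had normalized counts of 3790, 4016, and 4172 in *Irf1-/-* HSCs and of 4461, 4264, and 4894 in WT HSCs. No *Irf1-/-* library reached the lowest WT library. The log2 fold change of −0.18 (SE 0.091, 95% confidence interval −0.38 to 0.012, adjusted *P* = 0.344, limma; exact permutation *P* = 0.1) did not pass the threshold.

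*Ddit3*, which encodes the death-promoting factor CHOP downstream of ATF4, had normalized counts of 894, 913, and 964 in *Irf1-/-* HSCs and of 997, 967, and 914 in WT HSCs. The genotypes overlapped, and the libraries of both were close to each other, with coefficients of variation of 4.34% in WT and 3.92% in *Irf1-/-* HSCs. Its log2 fold change was −0.054 (SE 0.12, 95% confidence interval −0.31 to 0.21, adjusted *P* = 0.895, limma), and with 1 library left out it lay between −0.088 and −0.026.

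Among the ER-resident targets, *Hspa5*, which encodes BiP, the HSP70 chaperone that binds the sensors in unstressed cells, had normalized counts of 22497, 33685, and 27481 in *Irf1-/-* HSCs and of 36242, 46546, and 25545 in WT HSCs. WT replicates 1 and 2 were above every *Irf1-/-* library, but WT replicate 3 was lower than *Irf1-/-* replicates 2 and 3. The WT mean was 36111 ± 10502 (SD, n = 3) and the *Irf1-/-* mean 27887 ± 5605 (SD, n = 3). The log2 fold change was −0.35 (SE 0.18, 95% confidence interval −0.74 to 0.040, unadjusted *P* = 0.0751, adjusted *P* = 0.377, limma). Its WT coefficient of variation of 29.1% was exceeded by 0.858% of the tested genes with a mean of at least 1000.

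*Hsp90b1*, which encodes the ER chaperone GRP94, followed the same order of libraries. Its normalized counts were 16095, 20635, and 18549 in *Irf1-/-* HSCs and 22444, 27979, and 18359.5 in WT HSCs. WT replicates 1 and 2 again lay above the *Irf1-/-* libraries, and WT replicate 3 lay between *Irf1-/-* replicates 1 and 3. Its log2 fold change was −0.30 (SE 0.14, 95% confidence interval −0.59 to −0.011, unadjusted *P* = 0.0429, adjusted *P* = 0.284, limma).

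How far both chaperone genes stood from 0 depended on single libraries. Without WT replicate 3 the log2 fold changes were −0.58 for *Hspa5* (adjusted *P* = 0.0384, limma) and −0.45 for *Hsp90b1* (adjusted *P* = 0.0428, limma), short of the fold threshold, and without WT replicate 2 both were −0.15 (adjusted *P* = 0.802 and 0.716, limma). These adjusted values were the lowest and the highest over 16 alternatives for *Hspa5*. They were so for *Hsp90b1* as well. Without *Irf1-/-* replicate 1, *Hspa5* was at −0.20 (adjusted *P* = 0.761, limma).

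*Dnajb9*, which encodes the BiP cochaperone ERdj4 and is a target of spliced XBP1, had normalized counts of 793, 942, and 1017 in *Irf1-/-* HSCs and of 1037, 1171, and 1076 in WT HSCs. The genotypes did not overlap, although *Irf1-/-* replicate 3 and WT replicate 1 were close. Its log2 fold change was −0.26 (SE 0.13, 95% confidence interval −0.54 to 0.023, adjusted *P* = 0.362, limma; exact permutation *P* = 0.1). Without *Irf1-/-* replicate 1 it was −0.16 (adjusted *P* = 0.716, limma, the highest of a range from 0.263).

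*Herpud1*, a membrane protein of the machinery that removes misfolded proteins from the ER, had normalized counts of 7939, 9533, and 8752 in *Irf1-/-* HSCs and of 8544, 9798, and 7600.5 in WT HSCs. WT replicate 2 was the highest library and WT replicate 3 the lowest, so the *Irf1-/-* range lay inside the WT range. Its log2 fold change was 0.019 (SE 0.11, 95% confidence interval −0.21 to 0.25, adjusted *P* = 0.962, limma), and it was −0.012 with median centring, −0.045 without *Irf1-/-* replicate 2, and −0.070 without WT replicate 3.

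Within the IRE1 branch, factor and target stood on opposite sides of 0. Counts of *Dnajb9* divided by those of *Xbp1* were 0.0738, 0.0793, and 0.0972 in *Irf1-/-* HSCs and 0.127, 0.106, and 0.126 in WT HSCs. No *Irf1-/-* library reached a WT library. Counts of *Xbp1* divided by those of *Ern1*, in the same branch, were 4.80, 5.63, and 2.92 in *Irf1-/-* HSCs and 5.06, 4.38, and 2.85 in WT HSCs, and these overlapped. Within the PERK branch, counts of *Ddit3* divided by those of *Atf4* were 0.236, 0.227, and 0.231 in *Irf1-/-* HSCs and 0.223, 0.227, and 0.187 in WT HSCs. *Irf1-/-* replicate 2 was above WT replicate 2 by less than the rounding shows, so these groups did not overlap either. Within the ATF6 branch, counts of *Hspa5* divided by those of *Atf6* were 10.6, 14.0, and 13.2 in *Irf1-/-* HSCs and 16.8, 21.3, and 11.7 in WT HSCs, and these ranges overlapped. The pairs were chosen after the values were seen, so the ratios are descriptions without a test.

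The 3 branches were compared by the median log2 fold change of their genes, which was 0.16 for the IRE1 branch, −0.14 for the ATF6 branch, and −0.054 for the PERK branch. Scores average, for each library, how far the log2 values of the branch genes lie from their means over the 6 libraries. IRE1 scores were −0.12, −0.016, and 0.22 in *Irf1-/-* HSCs and −0.28, 0.14, and 0.055 in WT HSCs. ATF6 scores were −0.24, 0.10, and −0.092 in *Irf1-/-* HSCs and 0.081, 0.30, and −0.15 in WT HSCs. PERK scores were −0.088, 0.018, and 0.012 in *Irf1-/-* HSCs and 0.018, 0.018, and 0.023 in WT HSCs. The genotypes overlapped for each branch, and *Irf1-/-* replicate 1 had the lowest score among *Irf1-/-* libraries in all 3. The ATF6 median was −0.083 without *Irf1-/-* replicate 1, −0.22 without *Irf1-/-* replicate 2, −0.26 without WT replicate 3, and −0.064 when WT replicate 2 was left out. The PERK median, that of *Ddit3*, lay between −0.088 (WT replicate 3 left out) and −0.026 (WT replicate 1 left out). The IRE1 median is that of *Ern1* itself and turned below 0 with that gene, to −0.083 without *Irf1-/-* replicate 3 and to −0.099 without WT replicate 1.

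The difference between branches within a library also overlapped between genotypes. IRE1 minus ATF6 was 0.12, −0.12, and 0.31 in *Irf1-/-* HSCs and −0.36, −0.16, and 0.21 in WT HSCs. PERK minus ATF6 was 0.15, −0.086, and 0.10 in *Irf1-/-* HSCs and −0.064, −0.29, and 0.18 in WT HSCs. The spread between mice of the same genotype was thus as large as the distance between genotypes for both, and no branch stood apart from another by genotype.

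**Figure D1:**
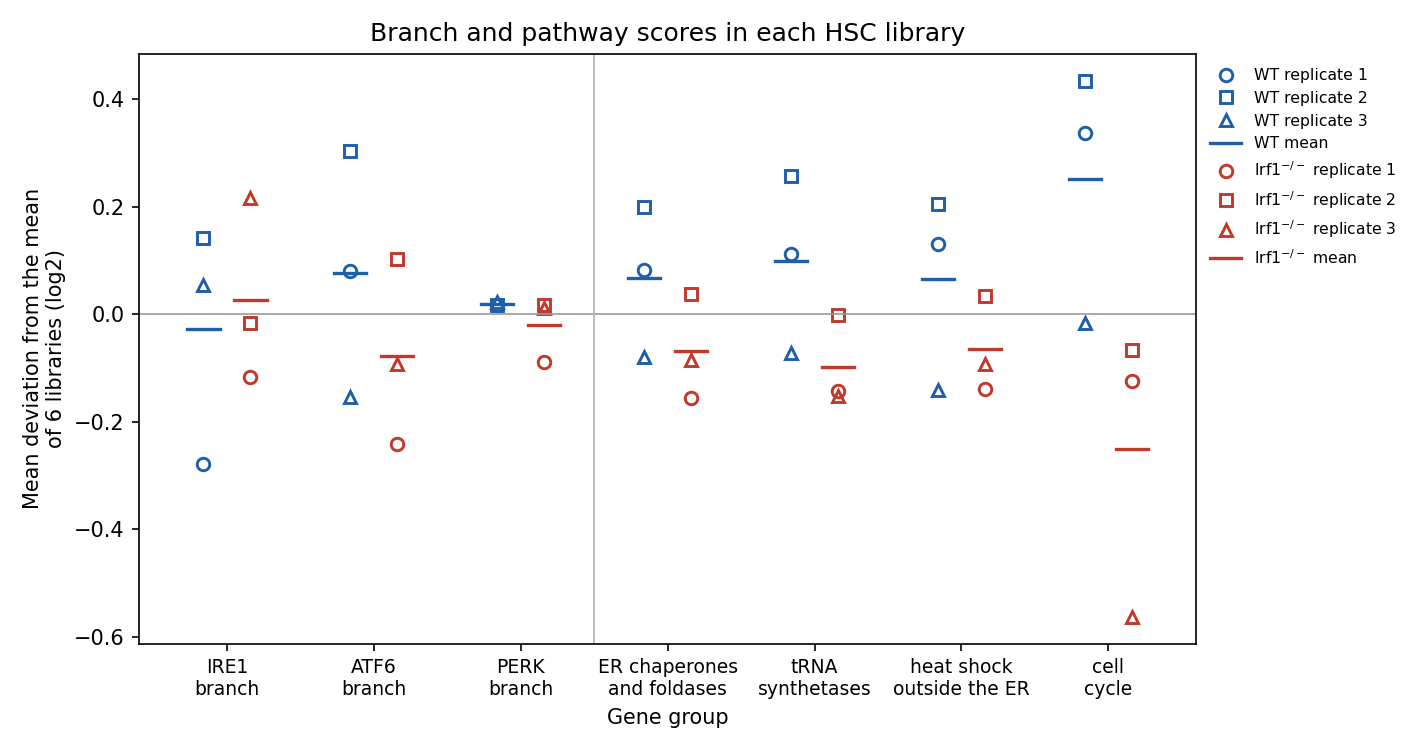
Scores (mean deviation on the log2 scale from the mean of 6 libraries) of the 3 branches and of 4 pathway lists in WT (blue) and *Irf1-/-* (red) libraries, with horizontal bars at the group means. WT replicate 3 lies near the *Irf1-/-* libraries for the chaperone, tRNA synthetase, and heat shock lists, and the genotypes separate for the cell cycle list.

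Members of different branches did not share 1 pattern over the libraries. *Hspa5* and *Hsp90b1* had a Pearson r of 0.988 over the 6 libraries and ranked them in the same order. Of 17403 tested genes other than *Hspa5*, 139 (0.799%) had its order, *Hsp90b1* among them. *Herpud1* followed *Hspa5* with r = 0.820, while *Atf6* did so with r = 0.295. In the IRE1 branch, r was 0.193 between *Ern1* and *Xbp1* and −0.292 between *Xbp1* and *Dnajb9*. *Xbp1* was closer to *Eif2ak3*, a sensor of another branch (r = 0.859). In the PERK branch, r was −0.565 between *Eif2ak3* and *Atf4* and 0.316 between *Atf4* and *Ddit3*. All of these are descriptions of the same 6 libraries, which differ in depth and genotype.

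Among 227 other genes of the pathway lists, those most like each member by Pearson r over the 6 libraries were as follows. *Ube2g2*, an enzyme of ER-associated degradation, was closest to *Hspa5* (r = 0.990, with 14 tested genes at or above it) and to *Hsp90b1* (r = 0.998, with 2). *Asns* and *Nr4a1* came next for *Hspa5*, and *Srprb* and *Sec61a1*, of the translocation machinery, for *Hsp90b1*. *Xbp1* was closest to *Creb3l2* (r = 0.929, with 48 tested genes at or above it), *Man1b1*, and *Syvn1*, and *Dnajb9* to *Ssr4* (r = 0.962, with 31), *Slc7a11*, and *Sec11c*. *Ern1* resembled *Gadd45a* most (r = 0.948, with 25), then *Dnajb4* and *Hspb8*. *Atf6* had the weakest likeness, to *Edem2* (r = 0.819, with 248), *Dnajc1*, and *Rnf5*. For *Herpud1* these genes were *Srpr* (r = 0.961, with 54), *Eif2ak4*, and *Pdia4*, and for *Eif2ak3* they were *Ier2* (r = 0.918, with 121), *Os9*, and *Stc2*. *Atf4* was closest to *Bak1* (r = 0.903, with 71), *Sec61b*, and *Ssr4*, and *Ddit3* to *Hspa1a* (r = 0.971, with 6), *Hspa13*, and *Kdelr2*.

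The wider pathway was described with 7 lists of partners and targets of the sensors, of the other eIF2α kinases, of aminoacyl-tRNA synthetases, and of ER folding and degradation, without the 10 members. Of 157 tested genes in these lists, 2 were called higher (background 0.96% of tested genes) and 1 lower (background 0.954%) in *Irf1-/-* HSCs by limma. The latter count was 6 without WT replicate 3, 4 without *Irf1-/-* replicate 2 or with median centring, and 0 without *Irf1-/-* replicate 1, *Irf1-/-* replicate 3, WT replicate 2, or the variance trend, and the former was 3 without WT replicate 3, 1 without *Irf1-/-* replicate 1 or *Irf1-/-* replicate 3, and 0 without the variance trend. The fold changes of 109 genes (69.4%) were below 0, beside 50.4% of all tested genes, and their median was −0.12 (−0.068 without WT replicate 2). At an unadjusted *P* under 0.05, 31 were lower, a larger share than the 8.07% of all tested genes, and 9 higher, a smaller share than the 8.38% of all tested genes. These are also the backgrounds for the counts of single lists below. The count of 31 depended on single mice, with 12 without *Irf1-/-* replicate 1, 13 without WT replicate 2, and 50 without WT replicate 3, and it was 14 without the trend in the prior variance.

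The list of IRE1 and XBP1 partners and targets, mostly genes of the translocon, the signal peptidase, and ER transport, held 32 tested genes. None was called by limma, edgeR, or DESeq2, 10 were lower and 0 higher at an unadjusted *P* under 0.05 in limma (12 lower in each of the other tools), and the median was −0.15. The count of 10 was 3 without *Irf1-/-* replicate 1, 6 without WT replicate 1, 5 without WT replicate 2, and 4 without the variance trend. *Spcs3*, a subunit of the signal peptidase, had the lowest *P*, with normalized counts of 9715, 10878, and 9985.5 in *Irf1-/-* HSCs and of 13574, 16315, and 11567 in WT HSCs. Its groups did not overlap, and the difference was −0.43 on the log2 scale (SE 0.11, adjusted *P* = 0.0582, limma). *Dnajc3*, which encodes an ER cochaperone and inhibitor of PERK, followed at −0.42 (SE 0.12, adjusted *P* = 0.0699, limma). The most abundant gene per kb was *Spcs2*, at −0.21 (adjusted *P* = 0.438, limma). These targets were thus mostly below 0 (25 of 32), while the total *Xbp1* messenger was above 0.

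The ATF6 list (processing enzymes, related factors, and chaperone targets) held 18 tested genes, with 1 called lower, 5 lower and 3 higher at an unadjusted *P* under 0.05, 10 below 0, and a median of −0.089, which was −0.023 without *Irf1-/-* replicate 1, −0.041 without *Irf1-/-* replicate 3, −0.024 without WT replicate 2, −0.19 without WT replicate 3, and −0.049 with quantile normalization. The count of 5 was 1 without *Irf1-/-* replicate 1, WT replicate 2, or the variance trend, and that of 3 was 1 without WT replicate 1. Without WT replicate 3, 3 genes of the list were called lower. The genotypes did not overlap for 5 genes higher in *Irf1-/-* HSCs, beside 1853 of all 17404 tested genes. They did so for 0 lower ones (background 9.27% of tested genes). *Sdf2l1*, which encodes an ER protein that works with BiP cochaperones, was the gene called. Its normalized counts were 1632, 2357, and 1602 in *Irf1-/-* HSCs and 3622, 4348, and 2243 in WT HSCs. WT replicates 1 and 2 were above all *Irf1-/-* libraries, and WT replicate 3 lay below *Irf1-/-* replicate 2. *Sdf2l1* fell by 0.84 on the log2 scale (SE 0.20, adjusted *P* = 0.0386, limma). The call was lost without *Irf1-/-* replicate 1 (−0.76), *Irf1-/-* replicate 3 (−0.74), WT replicate 1 (−0.77), or WT replicate 2 (−0.64), and also in DESeq2 (−0.87, adjusted *P* = 0.0655) and without the variance trend, with adjusted *P* between 0.00212 and 0.363 over all alternatives. *Calr*, which encodes the lectin chaperone calreticulin and was the most abundant of the list per kb, was at −0.24 (SE 0.11, adjusted *P* = 0.293, limma). *Crebrf*, a regulator of CREB3 factors singled out after its values were seen, passed the adjusted threshold but not that on the fold, at 0.40 (SE 0.093, adjusted *P* = 0.0314, limma).

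Of 39 tested partners and targets of PERK and ATF4, 1 was called higher and 0 lower, 5 were higher and 6 lower at an unadjusted *P* under 0.05, and the median was −0.13. The count of 6 was 10 without *Irf1-/-* replicate 2, and 3 genes were called lower without that library, without WT replicate 3, or with median centring. *Vldlr*, a lipoprotein receptor and target of ATF4, rose from 2581, 1989, and 1819 normalized counts in WT HSCs to 3858, 4900, and 3376 in *Irf1-/-* HSCs. The groups did not overlap, and the log2 fold change was 0.92 (SE 0.15, adjusted *P* = 0.00321, limma), called in every alternative but limma without the variance trend (adjusted *P* = 0.218, the highest of a range from 1.3e-07). *Phgdh*, the entry enzyme of serine synthesis and the most abundant of the list per kb, was at −0.22 (SE 0.11, adjusted *P* = 0.367, limma).

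Other ATF4 targets, singled out after their values were seen, pointed in both directions. *Psat1*, the next enzyme of serine synthesis, was at −0.57 (SE 0.10, adjusted *P* = 0.00720, limma), and *Slc7a1*, a transporter of cationic amino acids, at −0.56 (SE 0.12, adjusted *P* = 0.0251, limma), both just short of the fold threshold. *Trib3*, a pseudokinase induced by ATF4 and CHOP, was at 0.69 (SE 0.18, adjusted *P* = 0.0505, limma), just short of the adjusted threshold, with normalized counts of 2271, 2774, and 3176 in *Irf1-/-* HSCs and of 1836, 1224, and 2134 in WT HSCs. Its groups did not overlap.

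The other eIF2α kinases (*Eif2ak1*, *Eif2ak2*, and *Eif2ak4*), which feed into *Atf4* without ER stress, held 3 tested genes. None was called, none had an unadjusted *P* under 0.05 in limma, edgeR, or DESeq2, and the median was 0.064. It turned to −0.0046 when *Irf1-/-* replicate 2 was left out and to −0.00022 when WT replicate 3 was. The median was 0.019 without WT replicate 1 and 0.033 with median centring, but 0.12 without WT replicate 2 and 0.097 with quantile normalization. *Eif2ak1*, the heme-regulated kinase and the most abundant per kb, was at 0.064 (SE 0.091, adjusted *P* = 0.813, limma), and *Eif2ak4*, the sensor of uncharged tRNA, at 0.054 (SE 0.11, adjusted *P* = 0.879, limma).

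Of 12 aminoacyl-tRNA synthetase and tRNA export genes known as ATF4 targets, all 12 had fold changes below 0, with a median of −0.18 (−0.12 without WT replicate 2 and −0.27 without WT replicate 3). None was called by limma, edgeR, or DESeq2, and 5 were lower at an unadjusted *P* under 0.05 in limma (6 in edgeR and 5 in DESeq2). *Mars1*, the methionyl-tRNA synthetase, had normalized counts of 6603, 7162, and 6822 in *Irf1-/-* HSCs and of 8649, 9444, and 7572.5 in WT HSCs. Its groups did not overlap, at −0.31 (SE 0.095, adjusted *P* = 0.0986, limma). *Aars* was at −0.34 (SE 0.11, adjusted *P* = 0.137, limma) and *Nars*, the most abundant per kb, at −0.079 (SE 0.099, adjusted *P* = 0.780, limma). The count of 5 was 1 without WT replicate 2, 2 without *Irf1-/-* replicate 1 or *Irf1-/-* replicate 3, 10 without WT replicate 3, and 1 without the variance trend.

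The ER chaperone and foldase list held 36 tested genes, of which 30 had fold changes below 0, with a median of −0.14, or −0.073 with WT replicate 2 left out and −0.22 with WT replicate 3 left out. *Sdf2l1* was called lower and *Fkbp10* higher, and 11 were lower and 1 higher at an unadjusted *P* under 0.05. *Fkbp10*, a prolyl isomerase that acts on collagen, rose from 334, 419, and 377 normalized counts in WT HSCs to 722, 569, and 888 in *Irf1-/-* HSCs. The groups did not overlap, and the log2 fold change was 0.93 (SE 0.18, adjusted *P* = 0.0141, limma). *Fkbp10* was no longer called when *Irf1-/-* replicate 1 (0.92, adjusted *P* = 0.0636) or *Irf1-/-* replicate 3 (0.77, adjusted *P* = 0.0952) was left out or without the variance trend, over a range of adjusted *P* from 3.5e-05 to 0.203. The count of 11 was 3 without *Irf1-/-* replicate 1 or WT replicate 2, 7 without *Irf1-/-* replicate 3 or WT replicate 1, and 4 without the variance trend. Without WT replicate 3, 3 genes were called lower.

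ER-associated degradation, which exports misfolded proteins to the proteasome, was represented by 34 tested genes. Their fold changes were split evenly, with 17 below 0 and a median of −0.019 that turned to 0.029 with quantile normalization and to 0.039 without WT replicate 2. The median lay further below 0 without WT replicate 3 (−0.077, with 24 genes below 0), without *Irf1-/-* replicate 2 (−0.062, with 23), and with median centring (−0.050, with 22). None was called by limma, edgeR, or DESeq2, and 2 were lower at an unadjusted *P* under 0.05 in each of these. In limma this count was 6 without *Irf1-/-* replicate 2 or WT replicate 3 and 1 without *Irf1-/-* replicate 1, *Irf1-/-* replicate 3, or WT replicate 2. *Edem1*, a lectin that delivers misfolded glycoproteins, had normalized counts of 3243, 3281, and 3314 in *Irf1-/-* HSCs and of 3812, 4192, and 3913 in WT HSCs. Its groups did not overlap, at −0.28 (SE 0.088, adjusted *P* = 0.115, limma). *Selenos* was at −0.35 (SE 0.14, adjusted *P* = 0.230, limma), and *Vcp*, the extraction ATPase and the most abundant per kb, at −0.050 (SE 0.095, adjusted *P* = 0.873, limma).

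Genes of cell death after ER stress were read next. *Casp12*, a caspase of the ER membrane in mice, had normalized counts of 344, 266, and 414 in *Irf1-/-* HSCs and of 1993, 1950, and 1675 in WT HSCs. The groups were far apart, and *Casp12* fell by 2.47 on the log2 scale (SE 0.17, adjusted *P* = 8.5e-07, limma), a call kept in every alternative. Of 17 tested genes, 1 was called lower and 0 higher, 4 were lower and 1 higher at an unadjusted *P* under 0.05, and the median was −0.11 (−0.070 without *Irf1-/-* replicate 3). The count of 4 was 2 without *Irf1-/-* replicate 2, *Irf1-/-* replicate 3, or WT replicate 2. *Mcl1*, an antiapoptotic gene and the most abundant per kb, was at 0.057 (SE 0.085, adjusted *P* = 0.824, limma). *Bcl2*, another antiapoptotic gene, singled out after its values were seen, was at −0.41 (SE 0.094, adjusted *P* = 0.0291, limma), short of the fold threshold. *Pmaip1*, a proapoptotic gene also singled out after its values were seen, had a larger but uncalled difference of −2.67 (SE 1.05, adjusted *P* = 0.209, limma) at no more than 28.0 normalized counts in any library.

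Lists outside the ER were set beside these. Of 22 heat shock genes, whose products are cytosolic apart from the mitochondrial chaperonins of *Hspd1* and *Hspe1*, 0 were called by limma, edgeR, or DESeq2, 5 were lower at an unadjusted *P* under 0.05 in limma (6 in each of the others), and the median was −0.15, or −0.28 with *Irf1-/-* replicate 2 left out and −0.27 with WT replicate 3 left out. The count of 5 was 1 without *Irf1-/-* replicate 1 or the variance trend, 3 without WT replicate 2, 9 without *Irf1-/-* replicate 2, and 12 without WT replicate 3. *Hspa4* was at −0.28 (SE 0.088, adjusted *P* = 0.112, limma), *Hspe1* at −0.39 (SE 0.13, adjusted *P* = 0.125, limma), and *Hsp90ab1*, the most abundant per kb, at −0.19 (SE 0.11, adjusted *P* = 0.435, limma). Values below 0 were thus not limited to chaperones of the ER. The scores of this list were −0.14, 0.034, and −0.092 in *Irf1-/-* HSCs and 0.13, 0.21, and −0.14 in WT HSCs, with WT replicate 3 the lowest of all 6.

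Immediate early genes, which respond within minutes to handling and signals, had a median on the other side of 0. Of 18 tested genes, 2 were called higher and 1 lower, 4 were higher and 1 lower at an unadjusted *P* under 0.05, and the median was 0.13 (0.072 without WT replicate 3). *Egr1* rose by 1.01 on the log2 scale (SE 0.097, adjusted *P* = 3.9e-05, limma), from 2744, 3234, and 2778 normalized counts in WT HSCs to 6247, 5935, and 5471 in *Irf1-/-* HSCs. *Fosl2* rose by 0.90 (SE 0.21, adjusted *P* = 0.0368, limma) and *Btg2* fell by 0.63 (SE 0.16, adjusted *P* = 0.0460, limma). The call of *Egr1* was lost without the variance trend (adjusted *P* = 0.0511, the highest of its range, from 3.9e-19). Those of *Fosl2* and *Btg2* were lost without the variance trend, *Irf1-/-* replicate 3 (0.82 and −0.53), WT replicate 1 (0.94 and −0.58), or WT replicate 2 (0.88 and −0.55), that of *Fosl2* also without *Irf1-/-* replicate 1 (0.83), and that of *Btg2* also without *Irf1-/-* replicate 2 (−0.56) and with quantile normalization (−0.62). *Ier2*, the most abundant per kb, was at 0.091 (SE 0.086, adjusted *P* = 0.684, limma).

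Cell cycle genes lay further below 0 than the chaperones. All 20 tested genes were lower at an unadjusted *P* under 0.05 (11 without the variance trend and 15 without *Irf1-/-* replicate 3 or WT replicate 2), the median was −0.50, and 4 genes of mitosis and chromosome segregation were called. *Top2a* fell by 0.77 (SE 0.16, adjusted *P* = 0.0177, limma), *Mki67* by 0.67 (SE 0.17, adjusted *P* = 0.0427, limma), *Aurkb* by 0.63 (SE 0.15, adjusted *P* = 0.0368, limma), and *Tpx2* by 0.59 (SE 0.15, adjusted *P* = 0.0480, limma). *Mcm3*, the most abundant per kb, was at −0.38 (SE 0.12, adjusted *P* = 0.102, limma). The 4 calls became 2 without *Irf1-/-* replicate 1, 0 without *Irf1-/-* replicate 3, WT replicate 1, or WT replicate 2 and 0 without the variance trend, and 11 genes were called without WT replicate 3. *Tpx2* also lost its call with the pseudocount of 0.5 (adjusted *P* = 0.0513), with no filter on low values (adjusted *P* = 0.0546), and with quantile normalization (−0.55), over a range of adjusted *P* from 0.00175 to 0.368, and *Aurkb* lost its call without *Irf1-/-* replicate 2 (adjusted *P* = 0.0565, in a range from 0.00156 to 0.350). Scores of this list were −0.12, −0.067, and −0.56 in *Irf1-/-* HSCs and 0.34, 0.43, and −0.017 in WT HSCs. WT replicate 3 was thus the WT library with the lowest scores for cell cycle, heat shock, and ER chaperone genes alike (ER chaperone scores of −0.15, 0.037, and −0.086 in *Irf1-/-* HSCs and of 0.083, 0.20, and −0.079 in WT HSCs). The part of cycling cells in the chaperone values was not tested, and in bulk libraries fewer cells of a type and less RNA per cell cannot be told apart.

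Markers of other cell types were read in the same libraries, since secretory cells are rich in ER chaperones. The authors gate HSCs as lineage-negative cells positive for Sca-1, c-Kit, and CD150 and negative for CD48, a gate meant to leave such cells out. Of 12 B cell and plasma cell markers in the table, the summed normalized counts were 4135, 3806, and 3998 in *Irf1-/-* HSCs and 3636, 7995, and 3422 in WT HSCs. *Jchain*, which joins secreted antibody chains, had 4071 in WT replicate 2 and between 6.58 and 33.0 in the other libraries, and *Mzb1*, a BiP cofactor of plasma cells, had 114 there and between 9.05 and 32.2 elsewhere. Other plasma cell markers were not highest in that library, where *Sdc1* had 560.1, *Prdm1* 134, *Irf4* 37.2, and *Tnfrsf17* 30.4, beside highest values elsewhere of 750.5, 196, 95.5, and 40.9. *Cd79b*, between 2521 and 2952, was the most abundant marker except in WT replicate 2, where *Jchain* was above it. No marker was at 0 in all libraries. WT replicate 2 was also the highest library for *Hspa5*, *Hsp90b1*, *Herpud1*, and *Dnajb9*. Without it the log2 fold changes were −0.15 for *Hspa5* and *Hsp90b1*, 0.11 for *Herpud1*, and −0.21 for *Dnajb9*. The part of plasma cell RNA was not tested.

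In WT replicate 3 it was some of the neutrophil genes that stood out. Of 14 myeloid markers, the sums were 35888, 41539, and 39936 in *Irf1-/-* HSCs and 30814, 37356, and 39704 in WT HSCs, with *Lyz2* the most abundant (between 23206 and 31462). *Ltf*, which encodes a granule protein of neutrophils, had 2032 in WT replicate 3 and between 28.2 and 64.0 in the other libraries. *S100a9* had 1246 there and between 10.1 and 131 elsewhere. *S100a8* (1033), *Camp* (666), and *Ly6g* (46.3) were also highest there. Other granule genes were not, with 253 for *Mpo*, 64.5 for *Elane*, 6445 for *Prtn3*, and 10.8 for *Ctsg* in that library. Their highest values, in *Irf1-/-* replicate 3, were 355, 67.5, 9879, and 21.8. None of the 14 was at 0 in all libraries, although *Ly6g* was at 0 in 4. Their part in the lower chaperone values of WT replicate 3 was not tested.

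Erythroid and megakaryocyte markers separated by genotype. Of 9 erythroid markers, the globin genes *Hba-a1*, *Hba-a2*, *Hbb-bs*, and *Hbb-bt* were at 0 in all libraries. Why was not tested, and *Klf1*, *Epor*, and *Car1* had reads in every library, so these zeros were not read as absence of erythroid RNA. *Epor* was the most abundant except in WT replicate 3, where *Car1* (2638) was above *Epor* (1794). Sums were 5163, 3130, and 4052 in *Irf1-/-* HSCs and 6896, 6428, and 6924 in WT HSCs. Of 7 megakaryocyte markers, none was at 0 in all libraries, *Itga2b* was the most abundant, and sums were 51526, 33798, and 46290.0 in *Irf1-/-* HSCs and 58862, 71526, and 56833 in WT HSCs. Both lists were lower in every *Irf1-/-* library than in every WT library, and 2 genes of each were called lower and 0 higher by limma. These were *Car1* (−3.51, adjusted *P* = 0.0200) and *Klf1* (−0.72, adjusted *P* = 0.0361) of the erythroid list and *Pf4* (−1.11, adjusted *P* = 0.00334) and *Gp1bb* (−0.90, adjusted *P* = 0.00320) of the megakaryocyte list. The stromal and endothelial list leaned higher in *Irf1-/-* HSCs, with 1 of 7 tested genes below 0 and a median of 0.49. Of these 7, 2 were higher and 0 lower at an unadjusted *P* under 0.05. The genotypes overlapped for each of them, and WT replicate 3 had the highest score of all libraries (0.39). Sums of 9 T and NK cell markers lay between 2915 and 3884, with *Nkg7* the most abundant. Those of 6 dendritic cell markers lay between 6089 and 9232, with *Bst2* the most abundant in WT HSCs and *Flt3* in *Irf1-/-* HSCs. Those of 8 stromal and endothelial markers lay between 4008 and 6383, with *Pecam1* the most abundant. No gene of these lists was at 0 in all libraries. Among the dendritic cell markers *Flt3* was called higher (0.67, adjusted *P* = 0.0407, limma), while 4 of the 6 were below 0 and their median was −0.39. These marker genes were chosen after their values were seen.

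Promoters were read because ATF6 and XBP1 are known to bind the ER stress response element (ERSE) of chaperone genes. The element was searched on both strands as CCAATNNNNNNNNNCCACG in the 250 bases before and 50 bases after gene starts (RefSeq, GRCm38.p6), and it was found in 39 of 32851 promoters (0.119%). The choice of motifs was made after the expression values were seen. Of the 10 UPR genes, 9 were matched (all but *Atf6*), and an ERSE stood in the promoters of *Hspa5* and *Hsp90b1*, the pair with the same order of libraries. *Herpud1* held a CARE, the motif of ATF4 dimers (TGATGNAAN, in 3.95% of promoters), and no member held the UPRE (TGACGTGG, in 0.676%) or an IRF element (GAAANNGAAA, in 3.44%). A match is a description of these letters in this window.

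The *Hspa5* promoter (chr2:34771840-34772139, plus strand, GRCm38.p6) holds 1 ERSE that starts 65 bases before the gene start, and the *Hsp90b1* promoter (chr10:86705395-86705694, minus strand, GRCm38.p6) holds 2, which start at positions −212 on the sense strand and −107 on the opposite strand. The promoter of *Sdf2l1* (chr16:17132334-17132633, minus strand, GRCm38.p6), the chaperone gene that was called lower, is shown beside them and held 0 matches. Sequences are from RefSeq, 5′ to 3′ along the gene, with the ERSE in capitals.
Hspa5: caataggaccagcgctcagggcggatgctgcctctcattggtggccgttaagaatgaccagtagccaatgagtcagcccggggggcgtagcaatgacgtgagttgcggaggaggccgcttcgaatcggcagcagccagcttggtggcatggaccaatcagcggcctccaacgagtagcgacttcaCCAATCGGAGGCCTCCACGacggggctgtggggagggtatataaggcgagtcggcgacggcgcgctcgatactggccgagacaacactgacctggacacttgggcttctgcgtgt
Hsp90b1: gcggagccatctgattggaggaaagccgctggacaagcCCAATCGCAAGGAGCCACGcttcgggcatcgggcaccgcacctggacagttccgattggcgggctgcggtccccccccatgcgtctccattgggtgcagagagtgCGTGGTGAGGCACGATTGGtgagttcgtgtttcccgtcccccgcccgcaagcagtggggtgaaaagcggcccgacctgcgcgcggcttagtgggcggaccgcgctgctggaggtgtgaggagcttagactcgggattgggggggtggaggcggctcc
Sdf2l1: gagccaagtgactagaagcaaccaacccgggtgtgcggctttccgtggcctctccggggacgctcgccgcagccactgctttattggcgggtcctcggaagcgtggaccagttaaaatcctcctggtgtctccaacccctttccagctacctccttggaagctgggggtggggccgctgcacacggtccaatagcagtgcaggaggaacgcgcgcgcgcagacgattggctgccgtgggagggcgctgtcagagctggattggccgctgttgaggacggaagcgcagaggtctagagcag

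An ERSE was found in 37 of 27025 genes with a promoter (0.137%), 27 of which were tested. None of the 27 was called by limma, 16 had fold changes below 0, 6 were lower and 3 higher at an unadjusted *P* under 0.05, and the median was −0.13. Of all tested genes, 1.91% were called and 50.4% were below 0. At an unadjusted *P* under 0.05, 8.07% of all tested genes were lower and 8.38% higher. The 10 of them that belong to the members or pathway lists had a median of −0.30, with 9 below 0 and 5 lower at an unadjusted *P* under 0.05. All 10 were already counted above, in members and lists chosen with earlier results known, so they are no separate result. The 10 genes are named here. Beside *Hspa5* and *Hsp90b1* they were *Derl3* (−1.06, SE 0.53), *Creld2* (−0.45, SE 0.16), *Dnajc3* (−0.42, SE 0.12), *Pdia6* (−0.30, SE 0.13), *Calr* (−0.24, SE 0.11), *Canx* (−0.14, SE 0.094), *Ero1b* (−0.13, SE 0.14), and *Syvn1* (0.096, SE 0.099). The other 17, genes outside the lists, had a median of 0.077 with 7 below 0. Some of the 17 rest on few reads, and whether the motif marks the direction was not tested.

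**Figure D2:**
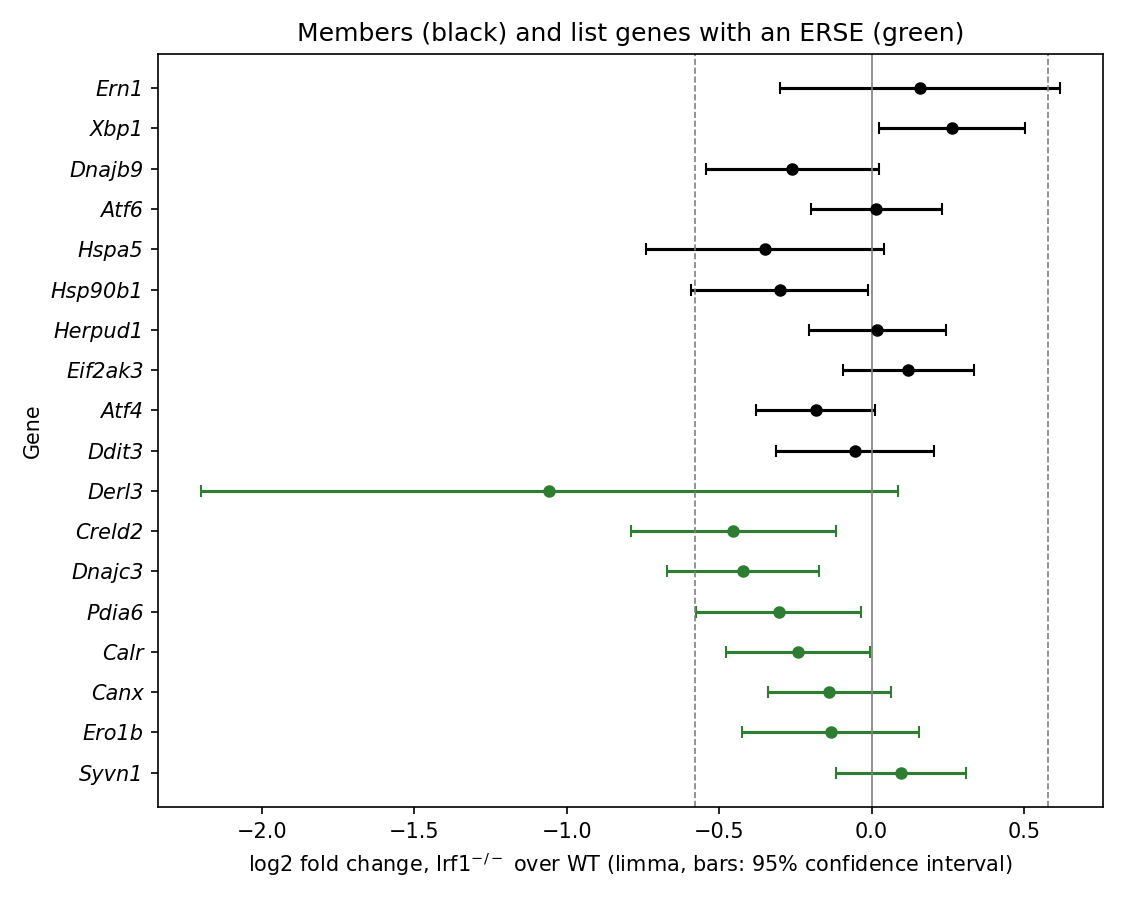
Log2 fold changes of *Irf1-/-* over WT HSCs (limma, points) with 95% confidence intervals (bars) for the 10 members (black) and the 8 other list genes with an ERSE (green), with dashed lines at the calling threshold of 0.58 on either side of 0. No gene shown was called, and the interval of *Derl3*, a gene of low counts, is the widest.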

How the data were processed

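HSCs of 3 WT and 3 *Irf1-/-* mice were grouped by the labels of the samples. The labels number the libraries of each genotype 1 to 3 in one place and 2 to 4 in another, and the former are used. The authors made cDNA with SMART-Seq v4, used Trim Galore! for trimming, HISAT2 for alignment (to mm39 by the submitters' processing notes), and Htseq-count for counting, and the signal the authors deposited is these counts scaled with DESeq2 size factors. Versions, annotation, and strand setting are not given in the sources used here, so how reads of overlapping genes were counted is not known. All values (100%, tolerance 0.01) were whole multiples of the value of 1 read, so reads were recovered. The libraries carry no molecular identifiers.

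The test was limma 3.58.1 with a trend in the prior variance (R 4.3.3), on log2(normalized count + 1). It covered genes whose mean was at least 10, with Benjamini-Hochberg adjustment. This scale understates changes of genes with low counts. On the recovered reads, edgeR 4.0.16 called 323 genes and DESeq2 1.42.0 called 504. The exact permutation test was run on *Irf1* and all members and is quoted for *Irf1* and the members without overlap. Groups of 3 that do not overlap always give its smallest *P* of 0.1, so that value adds nothing to the lack of overlap. The members with overlap had an exact permutation *P* of 0.2 or more. On simulated data with 200 changed genes (log2 change 1.5), limma recovered 100% and called 4 unchanged genes among 17442. The log2 fold changes of the members were smaller, between −0.35 (*Hspa5*) and 0.27 (*Xbp1*), and recovery at that size was not tested. Libraries of a genotype were not copies of each other, with a chi-square per gene from 16.2 to 29.8, above sampling noise. Exon lengths came from GENCODE vM1 by symbol and were used for levels per kb only. Figures were drawn with matplotlib 3.10.9.

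The members and lists were chosen with earlier results of these data known. Named genes were *Irf1*, the 10 members, the called genes of each pathway list (at most 5 per direction) or otherwise the 2 with the lowest *P*, the most abundant gene of each list per kb, and the 3 list genes most like each member. Other genes (markers included), the ratios, and the motifs were chosen after their values were seen. Alternatives covered the pseudocount (0.5 and 5), the filter (none and 50), the variance trend, quantile normalization, centring on the median, a block for replicate number, edgeR, DESeq2, the fold threshold, and each library left out.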

Additional observations from a re-analysis of the deposited data

How the results depend on the processing

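No member was called in any of 16 other settings or without the fold threshold. The total of called genes (333) was 40 without the variance trend, 504 with DESeq2, and 561 without the fold threshold, and between 204 and 569 with 1 library left out. The replicate block called 219 genes higher and 196 lower and changed no member's call. The labels do not say what a shared number means, so the numbers were not taken to pair the mice. Deviations of same-numbered libraries correlated at −0.094, 0.25, and 0.15. Those of differently numbered libraries correlated at between −0.33 and 0.25. With 3 mice of each genotype these values cannot decide whether the mice were paired. With 1 library left out, the branch medians lay between −0.099 and 0.26 (IRE1), −0.26 and −0.064 (ATF6), and −0.088 and −0.026 (PERK), and the cause of the sign change in IRE1 was the fold change of *Ern1*, which ranged from −0.099 to 0.35. *Atf6* ranged from −0.049 to 0.057 and *Herpud1* from −0.070 to 0.11, and with median centring they were −0.015 and −0.012, since that centring lowered the median of all tested genes to −0.034. The other 7 members and *Irf1* (−0.31 to −0.18) kept their direction in every setting. The median of the 157 list genes stayed below 0 in each setting (−0.16 to −0.068, main −0.12). Where no reason is given, the cause was not tested. Depth did not limit the members, whereas *Derl3*, *Pmaip1*, and the likenesses of *Hspa1a*, *Stc2*, *Slc7a11*, and *Bak1* rest on few reads.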
